A study of Mus musculus with 12 samples.

Results

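The 8 genes described here build the contacts between neighbouring cells. Gja1 and Gjc1 encode gap junction proteins, Cldn1 and Tjp1 tight junction proteins, Cdh11, Cdh2 and Cdh15 classical cadherins, and Ctnnb1 the cadherin partner β-catenin. They were chosen by name, with earlier results of these data known, and were found through the gene symbols of the probe annotation. Each had 1 probe, so that 8 probes of the 17504 rows fitted are the subject.

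The cells were MC3T3-E1, a preosteoblast line derived from mouse skull bone, and RNA was taken on Day 2, 5, 10 or 28 of culture. All 4 groups were grown with glycerol phosphate and ascorbic acid, Day 2 included, so no untreated culture served as a control. The submitters call the stages log phase growth (Day 2), growth arrest (Day 5), differentiating osteoblast (Day 10) and mature osteoblast (Day 28). There were 3 arrays per day and 12 in all. On each, the cells were labelled with Cy3 and set against a commercial mouse reference RNA in Cy5, with no exchange of dyes. Whether replicates were separate cultures is not stated, and the p-values rest on the spread among 3 arrays a day, part or all of which may be technical. The cells were 1 established line grown in dishes.

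In bone, osteoblasts are joined by cadherins, which hold neighbouring membranes together through their outer domains and bind catenins inside the cell. Gap junctions are channels made of connexins that let ions and small molecules pass from cell to cell, and Cx43, the product of Gja1, is the main connexin of osteoblasts and osteocytes. Claudins form the sealing strands of tight junctions and are best known from epithelia, where ZO-1, the product of Tjp1, anchors them to actin. ZO-1 also binds Cx43. β-catenin has a further role outside junctions, as the transcriptional partner of TCF and LEF factors in Wnt signalling.

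The promoters of Gja1 and Cldn1 are shown because these genes had the largest differences among the 8. RefSeq promoter sequences were matched for 5 of the 8 genes: Gja1, Cldn1, Tjp1, Cdh15 and Ctnnb1. Each line holds the 250 bases before the annotated start, 5′ to 3′ on the gene's strand, build GRCm38.p6. Capitals mark matches to any of 4 motifs searched on both strands and chosen after the sequences were seen. These were the AP-1 motif TGANTCA, the GC box GGGCGG, the E-box CAGGTG and the AT-rich run TTTAAA. Gja1 lies on the plus strand at chr10:56377050-56377299 and Cldn1 on the minus strand at chr16:26371840-26372089.
Gja1: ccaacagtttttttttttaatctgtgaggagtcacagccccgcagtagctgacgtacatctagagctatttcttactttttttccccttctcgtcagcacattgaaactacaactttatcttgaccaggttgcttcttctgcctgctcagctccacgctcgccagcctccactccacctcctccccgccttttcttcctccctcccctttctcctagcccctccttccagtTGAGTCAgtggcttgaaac
Cldn1: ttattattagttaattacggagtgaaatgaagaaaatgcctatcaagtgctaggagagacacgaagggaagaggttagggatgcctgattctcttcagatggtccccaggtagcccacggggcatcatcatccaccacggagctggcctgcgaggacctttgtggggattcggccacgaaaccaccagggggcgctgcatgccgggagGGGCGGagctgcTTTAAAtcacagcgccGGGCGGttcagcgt

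The Gja1 window held 1 AP-1 match, which began 19 bases before the start, and none of the other motifs. AP-1 matches were present in 6.75% of all 32851 promoter windows of this length. The Cldn1 window held 2 GC boxes, a motif found in 32.7% of windows, and 1 TTTAAA run, found in 12.1%, which began 30 bases before the start. CAGGTG was in neither window and in 17.2% of all. No motifs overlapped one another in these windows. A match describes the letters and was not tested as a binding site.

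Values are log ratios of cells to reference RNA, centred on the median of each array. The base of the logarithm is not stated, and log2 was assumed, so that a difference of 1 is a change of 2-fold. The direction of the ratio is not stated by the labels. Of 19 genes typical of mesenchymal cells and osteoblasts 15 had a mean above 0 (median 1.39), among them Col1a1 (2.48), Col1a2 (3.03) and the alkaline phosphatase gene Alpl (1.13). Those below 0 were Thy1 (-1.83), Lox (-0.48), Loxl1 (-0.09) and Vim (-0.07). Of 78 genes of other lineages 30 were above 0 (median -0.12). The 3 lowest were Krt18 (-5.71), Ptprc (-3.95) and Epcam (-3.22), of epithelia and leukocytes, and the 3 highest were Flt1 (1.46), Cebpa (2.05) and Ctsk (3.81), listed for endothelium, adipocytes and osteoclasts. These 3 also rose from Day 2 to Day 28, by 1.11 (Flt1, limma adjusted p = 0.00145), 1.64 (Cebpa, 0.000105) and 2.63 (Ctsk, 0.00286), each the only marker of its list to do so (of 11, 10 and 13 measured). Their part in the results was not tested. From the mesenchymal against the other markers, a positive value likely means more RNA in the cells, and every direction given here would turn if the ratio runs the other way. All arrays correlated positively with one another, at 0.723 to 0.923. Day 10 replicate 3 and Day 5 replicate 2 stood apart, with mean correlations to the other arrays of their day of 0.795 and 0.838, against 0.856 to 0.919 for the other 10. The medians of 22 mitosis genes were -0.50 to -0.22 on Day 2, -1.34 to -0.70 on Day 5, -2.37 to -0.87 on Day 10 and -1.09 to -1.02 on Day 28. The lowest of these, -2.37, was that of Day 10 replicate 3, and the other arrays of its day had -0.87 and -0.89. None of the 22 passed the F test in limma, which 5.32% of all rows passed. An unadjusted p under 0.05 in it was found for 11 of the 22 and for 3274 of all 17504 rows. In Day 10 against Day 2, 2 of the 22 (9.09%) passed in limma, each of them lower, where 1.06% of all rows passed and were lower. Their median difference in this comparison was -1.13, against -0.02 for all rows, with 17 of the 22 at an unadjusted p under 0.05.

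Of the 8 genes, 3 changed over the 4 days by the F test in limma, with a Benjamini-Hochberg adjusted p under 0.05 over all rows. They were Gja1 (adjusted p = 0.000636), Cldn1 (0.00732) and Cdh11 (0.017). Across all rows 5.32% passed the same test. Gja1 was lower on Day 10 and Day 28 than on Day 2, Cldn1 was lower on Day 28 than on each earlier day, and Cdh11 had its lowest mean on Day 2. The other 5, Gjc1, Tjp1, Cdh2, Cdh15 and Ctnnb1, passed in none of the 6 comparisons between days. A rise or a fall means a difference past that threshold, and fewer cells with a transcript cannot be told apart from less transcript per cell in such bulk RNA.

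**Figure D1:**
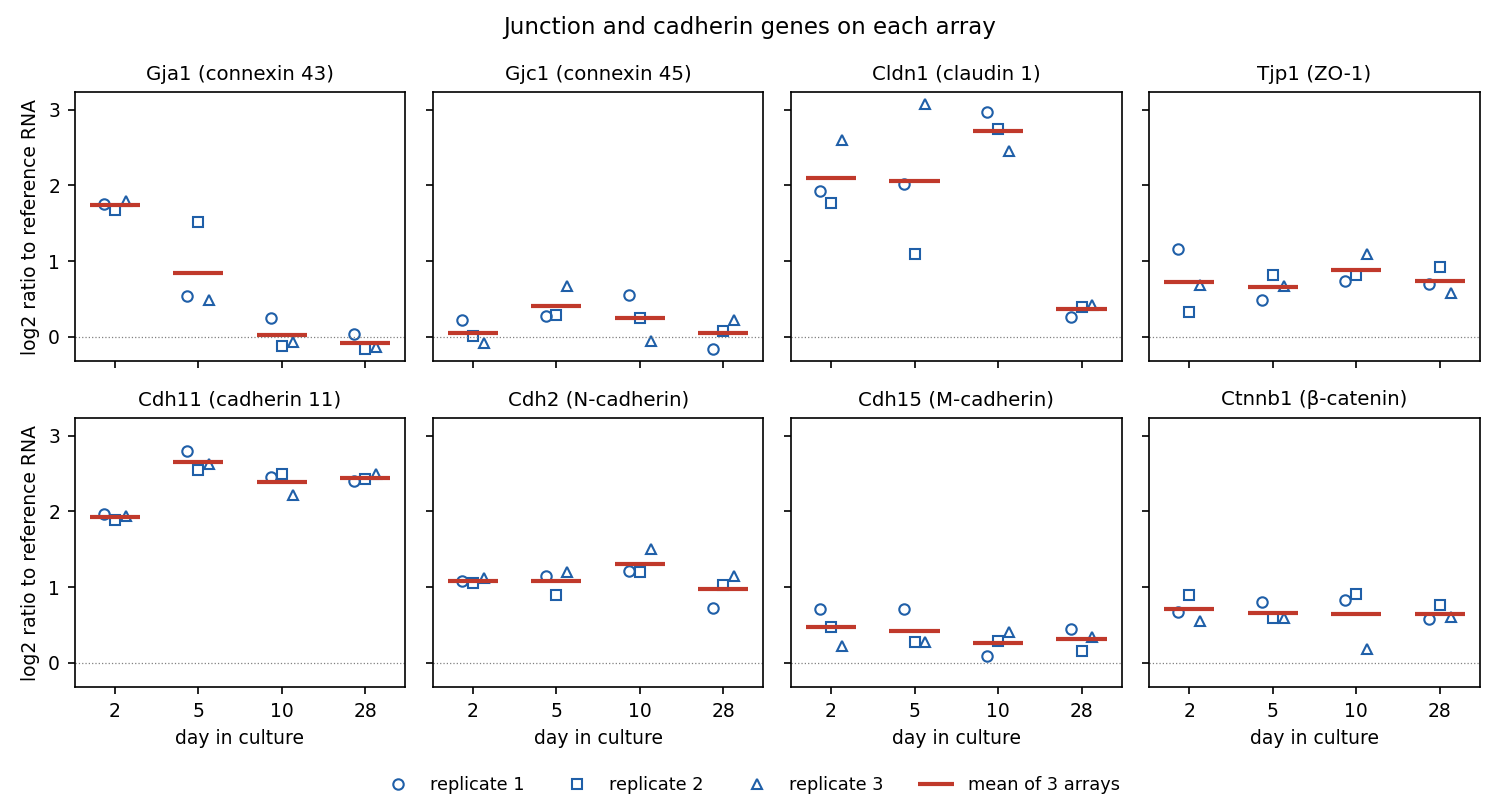
Log2 ratio to reference RNA (vertical axis) of the 8 genes on each of the 12 arrays, by day in culture (horizontal axis, days not to scale). Symbols are the 3 replicates and red bars the means of a day: Gja1 goes from 1.75 on Day 2 to -0.09 on Day 28, Cldn1 from 2.72 on Day 10 to 0.36 on Day 28, and Cdh11 from 1.93 on Day 2 to 2.66 on Day 5.

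Gja1 was above the reference RNA in the growing cells of Day 2 and close to it from Day 10 on. The log2 ratios of replicates 1, 2 and 3 were 1.76, 1.68 and 1.80 on Day 2, and 0.53, 1.51 and 0.48 on Day 5. They were 0.25, -0.12 and -0.07 on Day 10, and 0.04, -0.16 and -0.14 on Day 28. The Day 2 arrays were close together and above all others, while Day 5 spread widely with replicate 2 near the Day 2 values. Day 10 and Day 28 overlapped. The mean ratio went from 1.75 ± 0.06 (Day 2) through 0.84 ± 0.58 (Day 5) and 0.02 ± 0.20 (Day 10) to -0.09 ± 0.11 (Day 28, SD, n = 3).

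Between Day 2 and Day 28 Gja1 fell 3.56-fold (log2 difference -1.83, SE 0.23, limma adjusted p = 0.000235), and between Day 2 and Day 10 it fell 3.31-fold (-1.73, adjusted p = 0.0016). Gja1 was the only 1 of the 8 past the threshold in Day 10 against Day 2, where 2.59% of all rows passed and 1.06% were lower. Both falls kept their call under each of the 22 alternatives run for them. Neighbouring days did not pass: Day 5 differed from Day 2 by -0.90 (adjusted p = 0.143) and Day 10 from Day 5 by -0.83 (adjusted p = 0.229), although their arrays did not overlap. Without Day 5 replicate 2 the latter difference was -0.49. Day 28 differed from Day 10 by -0.10, with a 95% confidence interval of -0.59 to 0.38.

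The difference of Gja1 between Day 2 and Day 5 depended on Day 5 replicate 2. Without that array it passed (log2 difference -1.24, limma adjusted p = 0.00401). With both arrays that stood apart left out the difference was again -1.24 (adjusted p = 0.00249). Day 28 was lower than Day 5 by -0.93 (adjusted p = 0.0325), and this call was lost without Day 5 replicate 2 (-0.59, adjusted p = 0.0525), without Day 28 replicate 1, 2 or 3 (adjusted p = 0.0704, 0.114 and 0.107) and after quantile normalization (0.051). From the arrays of these 2 days alone the adjusted p was 0.0827. Within an array, Gja1 stood at the 98.7th percentile of all rows on the Day 2 arrays. On Day 28 it stood between the 35.4th and the 54.4th percentile. The medians of the mitosis genes were also highest on Day 2, and their part in the fall of Gja1 was not tested.

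Gjc1, which encodes Cx45, a connexin with low-conductance channels, passed in no comparison. Its ratios were 0.22, 0.01 and -0.09 on Day 2, 0.28, 0.28 and 0.67 on Day 5, 0.55, 0.24 and -0.05 on Day 10, and -0.16, 0.08 and 0.23 on Day 28. The days overlapped except that each Day 5 array lay above those of Day 2 and Day 28. Day 5 differed from Day 2 by 0.36 (SE 0.18, adjusted p = 0.523) and Day 28 from Day 5 by -0.36 (adjusted p = 0.328). From Day 2 to Day 28 the difference was 0.00 with an interval of -0.38 to 0.39. Whether the changes of both connexins differ was not tested.

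Of the other connexins and pannexins listed, 13 of 20 were measured. None passed the F test or any of the 6 comparisons, with 1 of 13 at an unadjusted p under 0.05 in Day 28 against Day 2. Across all rows 5.32% passed the F test and 0.149% to 5.69% passed a comparison, so 0 calls among 13 is near these shares. An unadjusted p under 0.05 in Day 28 against Day 2 was found for 3196 of all 17504 rows. Their median difference between Day 2 and Day 28 was -0.05, against -0.01 for all rows, with a range of -0.51 to 0.12. The lowest was that of Gjb6, a connexin of the inner ear and skin, at -0.51 (adjusted p = 0.131). Panx3, a pannexin found in osteoblasts and chondrocytes, differed by -0.05 (adjusted p = 0.92).

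Cldn1 encodes claudin-1, a protein of tight junction strands, and its ratios were among the highest of each array up to Day 10. Replicates 1, 2 and 3 had log2 ratios of 1.93, 1.77 and 2.60 on Day 2, and of 2.02, 1.10 and 3.07 on Day 5. On Day 10 they were 2.97, 2.75 and 2.46, and on Day 28 they were 0.26, 0.40 and 0.43. The 3 Day 28 arrays lay together and below all the other 9, whereas Day 2, Day 5 and Day 10 overlapped. Day 5 had the widest spread, from its replicate 2, the lowest of the 9, to its replicate 3, the highest. The means were 2.10 ± 0.44 (Day 2), 2.07 ± 0.99 (Day 5), 2.72 ± 0.26 (Day 10) and 0.36 ± 0.09 (Day 28, SD, n = 3).

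From Day 10 to Day 28 Cldn1 fell 5.14-fold (log2 difference -2.36, SE 0.37, limma adjusted p = 0.00747), the only call among the 8 in this comparison, in which 0.84% of all rows passed and 0.131% were lower. The call held under each of the 22 alternatives, with differences of -2.50 to -2.24. Day 28 was also below Day 2 by 3.34-fold (-1.74, adjusted p = 0.0134) and below Day 5 by 3.26-fold (-1.70, adjusted p = 0.0175). The first of these was lost without Day 2 replicate 3 (-1.49, adjusted p = 0.0718) and without Day 28 replicate 1 (-1.69, adjusted p = 0.0524). The other was lost without Day 5 replicate 1 (adjusted p = 0.0542) and without Day 28 replicate 1, 2 or 3 (adjusted p = 0.068, 0.061 and 0.0564). Among the earlier days Cldn1 differed by -0.04 between Day 5 and Day 2 (interval -0.83 to 0.76) and by 0.66 between Day 10 and Day 5 (interval -0.14 to 1.46), and neither passed. Both differences rested on the wide spread of Day 5. Without its replicate 2 they were 0.45 and 0.18, and without its replicate 3 they were -0.54 and 1.16.

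Claudins are typical of epithelia, so epithelial markers were read beside Cldn1. None of 15 measured epithelial markers passed the F test in limma, which 5.32% of all rows passed. An unadjusted p under 0.05 in it was found for 3 of the 15 and for 3274 of all 17504 rows. The summed log2 ratio of the markers was -15.2 to -14.4 on Day 2, -18.0 to -15.6 on Day 5, -18.7 to -13.5 on Day 10 and -17.6 to -15.5 on Day 28. The highest sum of Day 10, -13.5, was that of replicate 3, an array that stood apart, and the other arrays of its day had -18.5 and -18.7. The part of these markers in the course of Cldn1 was not tested. Cdh1, which encodes the epithelial E-cadherin, was highest on Day 10 (0.60 ± 0.42) and at -0.23 ± 0.51 on Day 28 (SD, n = 3), a difference of -0.83 (adjusted p = 0.303). This was the lowest difference among the 15 markers in Day 28 against Day 10, where the median was 0.02 and 9 of 15 were above 0. Epcam and Krt18 went the other way, with means of -3.62 and -6.19 on Day 10 and of -3.07 and -5.62 on Day 28.

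Tjp1, the scaffold gene of tight junctions, passed in no comparison. Its lowest, median and highest ratios over the 12 arrays were 0.33, 0.71 and 1.15, with the lowest and the highest both on Day 2. The means were 0.72 ± 0.41, 0.65 ± 0.16, 0.88 ± 0.19 and 0.74 ± 0.17 on the 4 days in order (SD, n = 3). All days overlapped, and Day 28 differed from Day 10 by -0.15 with an interval of -0.56 to 0.27.

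Among the other tight junction genes listed, 34 of 42 were measured, by 38 probes. In Day 28 against Day 2 only Prkci passed, the gene of an atypical protein kinase C of the cell polarity complex. It fell from 0.62 ± 0.12 on Day 2 to -0.04 ± 0.02 on Day 28 (SD, n = 3, log2 difference -0.66, limma adjusted p = 0.0075), under all 22 alternatives. Prkci and 1 of 3 probes of Cxadr, a cell adhesion receptor, were lower on Day 28 than on Day 5. These were 2 of 38 probes (5.26%), against 4.71% of all rows passing. In Day 28 against Day 2 the share was 1 of 38 (2.63%), against 5.69% of all rows. The Cxadr probes differed in level, with means over the 12 arrays of -0.08 for the called probe and -2.26 and -1.85 for the others. The called Cxadr probe fell by 0.58 (adjusted p = 0.0405) and lost its call under 13 of the alternatives. Of these, 8 had 1 array left out (Day 2 replicates 1 and 2 and all arrays of Day 5 and Day 28, adjusted p up to 0.157). The sealing protein gene Ocln differed by -0.03 between Day 2 and Day 28 (adjusted p = 0.955). The median over the 38 probes was -0.07 in that comparison.

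**Figure D2:**
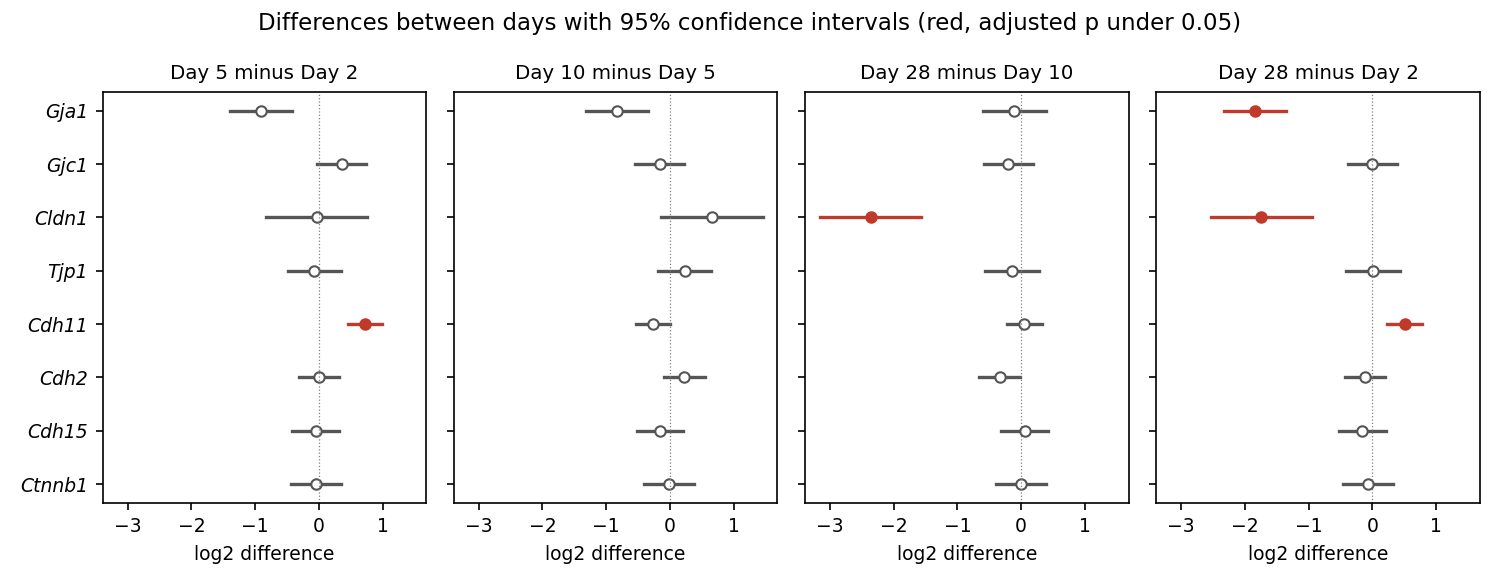
Log2 difference between days (horizontal axes) with 95% confidence intervals for the 8 genes (rows), in 3 successive steps and over the whole course. Filled red points have an adjusted p under 0.05: Cdh11 from Day 2 to Day 5 (0.72), Cldn1 from Day 10 to Day 28 (-2.36), and these with Gja1 (-1.83) from Day 2 to Day 28.

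Cdh11, the osteoblast cadherin, was high against the reference on every array and lowest on Day 2. Its log2 ratios were 1.97, 1.89 and 1.94 on Day 2, and 2.80, 2.55 and 2.62 on Day 5. They were 2.46, 2.49 and 2.21 on Day 10, and 2.40, 2.43 and 2.49 on Day 28. The Day 2 arrays lay below the other 9, Day 5 lay above all, and Day 10 and Day 28 overlapped. The mean was lowest on Day 2 at 1.93 ± 0.04 and highest on Day 5 at 2.66 ± 0.13, with 2.39 ± 0.15 on Day 10 and 2.44 ± 0.05 on Day 28 (SD, n = 3).

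Cdh11 rose 1.65-fold from Day 2 to Day 5 (log2 difference 0.72, SE 0.13, limma adjusted p = 0.0266), the only 1 of the 8 in a comparison where 0.337% of all rows passed and 0.2% were higher. Over the whole course it rose 1.42-fold (0.51, adjusted p = 0.0313). Day 10 differed from Day 2 by 0.46 (adjusted p = 0.0768), and the later neighbouring days differed by -0.27 (Day 10 and Day 5, adjusted p = 0.561) and 0.05 (Day 28 and Day 10, adjusted p = 0.933).

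The calls of Cdh11 depended on the arrays and on how these were scaled. The rise to Day 5 kept its direction under all 22 alternatives, at 0.50 to 0.78, and lost its call under 13 of them. These included 8 of 12 alternatives with 1 array left out, namely those without any 1 array of Day 2 or Day 28 and without Day 5 replicate 1 or 3 (adjusted p from 0.0508 to 0.114). The F test was lost without Day 2 replicate 2 (adjusted p = 0.0732) or 3 (0.0624), with equal spread of the arrays (0.0841) and with a trend and robust prior (0.122). The difference between Day 2 and Day 28 lost its call without any 1 array of these days (adjusted p from 0.061 to 0.116), with equal spread (0.109) and with the trend and robust prior (0.151). After quantile normalization the last difference turned to -0.12 (adjusted p = 0.683), and that between Day 5 and Day 28 passed at -0.62 (adjusted p = 0.0123). The log2 ratio at the 98th percentile of an array was 1.41 to 1.47 on Day 2 and 1.83 to 1.95 on Day 28. Within the arrays, Cdh11 stood at the 98.9th to 99.1st percentile on Day 2, the 99.3rd to 99.5th on Day 5 and the 98.8th to 98.9th on Day 28. Without Day 10 replicate 3 the difference between Day 2 and Day 10 passed (0.54, adjusted p = 0.0398). The part of the mitosis genes, whose medians were highest on Day 2, was not tested for Cdh11.

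**Figure D3:**
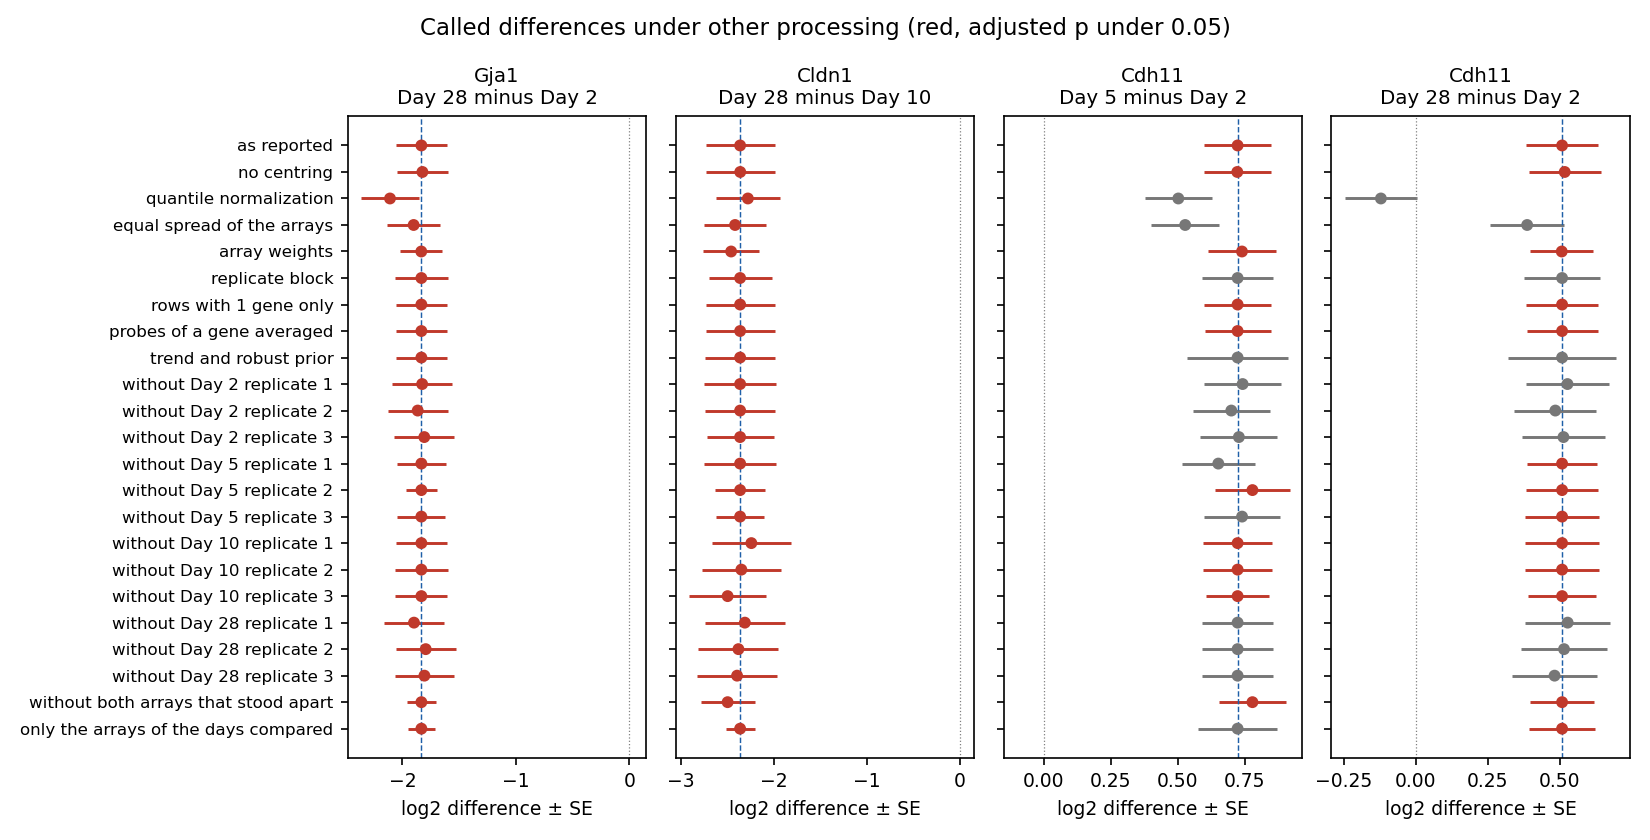
Log2 difference ± SE (horizontal axes) of 4 called differences as reported and under 22 alternatives (rows), with adjusted p under 0.05 in red and the reported value as a dashed line. Gja1 (Day 28 minus Day 2) and Cldn1 (Day 28 minus Day 10) stay red throughout, while Cdh11 turns to -0.12 in Day 28 minus Day 2 after quantile normalization.

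Cdh2, which encodes N-cadherin, the other cadherin typical of osteoblasts, passed in no comparison. Its ratios were 1.08, 1.05 and 1.11 on Day 2, 1.14, 0.90 and 1.19 on Day 5, 1.21, 1.20 and 1.50 on Day 10, and 0.73, 1.03 and 1.14 on Day 28. Day 10 was highest, with each of its arrays above those of the other days. Day 28 differed from Day 10 by -0.34 (SE 0.15, unadjusted p = 0.0384, limma adjusted p = 0.431). Between Day 2 and Day 28 Cdh2 differed by -0.11, with an interval of -0.43 to 0.20.

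Cdh15 encodes M-cadherin, known from skeletal muscle and its satellite cells, and was close to the reference throughout. Its lowest, median and highest ratios over the arrays were 0.08, 0.31 and 0.71, and all days overlapped. The difference between Day 2 and Day 28 was -0.15, with an interval of -0.52 to 0.21. The muscle regulators Myod1 and Myog had mean ratios of 0.09 and -0.30. Of 18 muscle markers measured 1 changed over the 4 days, Tnnt1, a slow troponin gene (F test in limma, 1 of 18 or 5.56%, close to the 5.32% of all rows), and their summed ratio ran from -7.17 to -0.65 over the arrays.

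None of 24 other cadherins and protocadherins measured, out of 35 listed and with 26 probes, passed the F test or a comparison, with 6 of the 26 probes at an unadjusted p under 0.05 in Day 28 against Day 2, as were 3196 of all 17504 rows. Across all rows 5.32% passed the F test and 5.69% passed in Day 28 against Day 2. The median difference was -0.04 there. The range, -0.62 to 0.57, had Pcdh10, a protocadherin, at its upper end (adjusted p = 0.113), while its other probe differed by -0.21 (adjusted p = 0.497). Cdh5, the cadherin of endothelium, differed by 0.54 between Day 2 and Day 10 (adjusted p = 0.0579).

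Ctnnb1 passed in no comparison. Its means were 0.71 ± 0.18 (Day 2), 0.66 ± 0.12 (Day 5), 0.64 ± 0.40 (Day 10) and 0.65 ± 0.10 (Day 28, SD, n = 3). The lowest of the 12 ratios, 0.18, was that of Day 10 replicate 3, an array that stood apart, and the other 11 lay between 0.55 and 0.91. The highest and lowest means were 0.07 apart (F test adjusted p = 0.994). Day 28 differed from Day 10 by 0.00, and by -0.23 without Day 10 replicate 3 (neither passed), and the interval of Day 28 minus Day 2 was -0.46 to 0.33.

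Of the other catenins and adherens junction partners, 23 of 24 were measured and 2 passed in a comparison. In Day 28 against Day 2, 1 of 23 (4.35%) passed, against 5.69% of all rows. In Day 28 against Day 5 it was also 1 of 23 (4.35%), against 4.71% of all rows. Ctnnal1, a relative of α-catenin, rose from 0.02 ± 0.30 on Day 2 to 0.73 ± 0.04 on Day 28 (SD, n = 3, log2 difference 0.71, limma adjusted p = 0.034). Lpp, which encodes a LIM protein of focal adhesions and cell contacts, had its highest mean on Day 5 (1.01 ± 0.49) and fell by 1.00 to Day 28 (adjusted p = 0.019). Ctnnal1 lost its call without Day 2 replicate 1 or 3 or any Day 28 array (adjusted p up to 0.141), among 6 alternatives in all, and Lpp without Day 5 replicate 1 or 2 or Day 28 replicate 1 or 2 (adjusted p up to 0.0947). Ctnna1, the α-catenin that links β-catenin to actin, differed by -0.44 between Day 2 and Day 28 (adjusted p = 0.185). Jup, which encodes plakoglobin and can stand in for β-catenin, was far below the reference on all days, with means of -2.36 to -1.95, and differed by 0.22 (adjusted p = 0.502).

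Neither desmosome genes (9 probes) nor genes of the β-catenin destruction complex and its targets (20 probes) had a member past the threshold. Across all rows 5.32% passed the F test and 5.69% passed in Day 28 against Day 2, so 0 calls in lists of this size is near these shares. An unadjusted p under 0.05 in Day 28 against Day 2 was found for 3196 of all 17504 rows. Of the desmosome list 8 of 12 genes were measured, with a median difference of -0.12 between Day 2 and Day 28 and 1 probe at an unadjusted p under 0.05. Of the β-catenin list 17 of 20 were measured, with a median of -0.09 and 0 probes at an unadjusted p under 0.05 in limma. Axin2, a target of β-catenin that feeds back on it, differed by 0.01 (adjusted p = 0.992). The cell cycle gene Ccnd1, a target in other cells, differed by 0.66 between Day 2 and Day 5 (adjusted p = 0.294).

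Set against all rows, the 8 genes had 3 calls in Day 28 against Day 2, where 5.69% of rows passed (3.68% higher and 2.01% lower), and 2 calls in Day 28 against Day 5, where 4.71% passed (1.91% lower). They had 0 calls in Day 10 against Day 5, with 1 at an unadjusted p under 0.05 and 0.149% of rows passing in limma. Over the 6 lists, 119 other junction genes with 129 probes were measured, and 1.55% of these probes passed in Day 28 against Day 2. The 5 genes without a call had 95% confidence intervals for Day 28 minus Day 2 within -0.52 and 0.43. Over the 6 comparisons the widest bounds were -0.74 and 0.75, which leaves room for a difference of up to 1.68-fold in the direction of the upper bound.

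**Figure D4:**
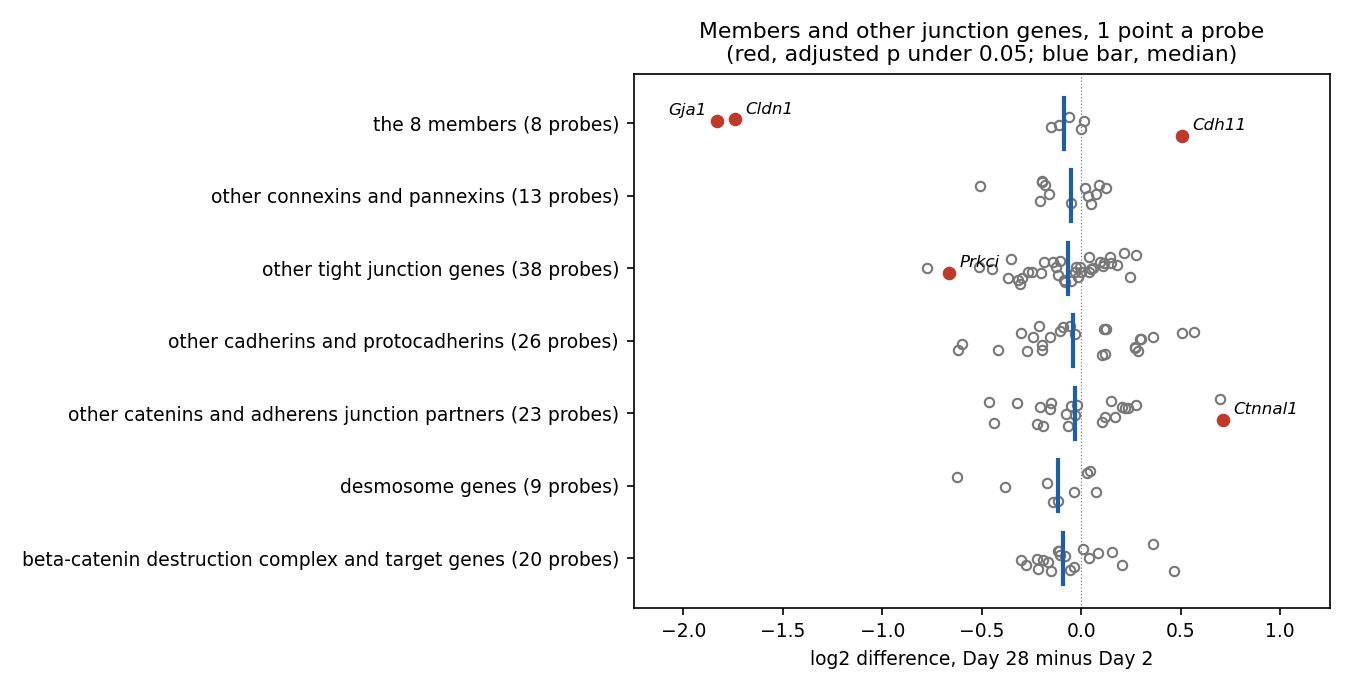
Log2 difference of Day 28 minus Day 2 (horizontal axis) for the 8 genes and 6 lists of other junction genes (rows), 1 point per probe, with blue bars at the medians. Red points have an adjusted p under 0.05: Gja1, Cldn1 and Cdh11 above, and Prkci (-0.66) and Ctnnal1 (0.71) below.

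The genes most like each of the 3 in their course were taken from 848 other named probes past the F test, by Pearson correlation over the 12 arrays. These arrays share their reference RNA and fall into days, so the values describe likeness only. For Gja1 they were Fancl (r = 0.958), a ubiquitin ligase of DNA repair, Cyp1b1 (0.935), a cytochrome P450, and Abracl (0.934). Cyp1b1 went from 0.56 on Day 2 through -0.28 and -0.69 to -0.88 on Day 28. For Cldn1 they were the transcription factor gene Sox11 (0.852), Rtn3 (0.842), a reticulon, and Cd44 (0.831), the hyaluronan receptor. Cd44 had means of 1.07, 1.20 and 1.08 on the first 3 of the days and 0.29 on Day 28. For Cdh11 they were Tsc22d2 (0.932), Ptprv (0.908), a phosphatase gene known from osteoblasts, and Socs2 (0.90), a suppressor of cytokine signalling. Socs2 had means of 1.86 on Day 2 and 2.76 on Day 5.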

How the data were processed

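RNA of MC3T3-E1 cells was measured on 12 two-colour arrays, 3 for each of 4 days. The authors deposited 1 log2 ratio per spot and array. R 2.13.0 is named in the submitters' processing notes. How background was corrected and arrays normalized, which base the logarithm has and which way the ratio runs is not given in the sources used here, and log2 was assumed. Dim spots could not be filtered, since intensities were not used, and 3 arrays per day limit the precision.

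Rows were named from the platform's annotation, with symbols updated through a RefSeq table of GRCm38.p6. Of 17664 rows 14010 had 1 gene, 13 several and 3641 none, and 13908 were matched. Spots of 10 probes printed repeatedly (170 spots) were averaged, which left 17504 rows. Each array was centred on its median, and 1 mean per day was fitted in R (4.3.3) using limma (3.58.1, 8 residual and 5.23 prior degrees of freedom), with Benjamini-Hochberg adjustment over all rows for each comparison. The fit was run on simulated data with independent noise in each array and large changes planted on Day 28. That run did not cover arrays that stand apart or differences as small as those of Cdh11. The members and lists were chosen with earlier results of these data known. Named genes were all members, called members of the lists (up to 4 per list), the 3 nearest probes by correlation, and single list genes added after their values were seen to show a role. Alternatives were other normalizations, array weights, a replicate block, other row sets, another variance model and each array left out in turn.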

Additional observations from a re-analysis of the deposited data

How the results depend on the processing

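The falls of Gja1 from Day 2 to Day 10 and Day 28 and that of Cldn1 from Day 10 to Day 28 kept direction and call under all 22 alternatives. The difference of Cdh11 between Day 2 and Day 28 reversed to -0.12 after quantile normalization, and arrays differed in the width of their upper tail by day. In Day 5 against Day 2, the number of the 8 genes called went from 1 to 0 after quantile normalization, with equal spread of the arrays, with the replicate block, with a trend and robust prior, and from the arrays of these days alone, and to 2 without both arrays that stood apart, an alternative chosen after seeing the data. In Day 10 against Day 2 it went from 1 to 2 with array weights and without both arrays. In Day 28 against Day 5 it went from 2 to 1 with the replicate block and from the arrays of these days alone. With 1 array left out in turn the counts ran from 2 to 3 (F test), 0 to 2 (Day 5 against Day 2), 0 to 0 (Day 10 against Day 5), 1 to 1 (Day 28 against Day 10), 1 to 2 (Day 10 against Day 2), 0 to 2 (Day 28 against Day 5) and 1 to 3 (Day 28 against Day 2). Over single genes, 1242 of the values under alternatives kept their side of the threshold, 63 lost a call, 6 gained one and 1 was a called difference that reversed. These values cover the 8 genes and the called probes of Cxadr, Prkci, Ctnnal1 and Lpp. Most belong to differences that were not called as reported and so could not lose a call. The total therefore does not measure how stable the calls were. Some differences without a call changed sign, among them that of Cldn1 between Day 2 and Day 5, which ran from -0.54 to 0.45. Over all rows the count called ranged under the alternatives from 515 to 1764 for the F test (931 as reported), 20 to 231 for Day 5 against Day 2 (59), 0 to 83 for Day 10 against Day 5 (26), 65 to 420 for Day 28 against Day 10 (147), 148 to 963 for Day 10 against Day 2 (454), 404 to 1161 for Day 28 against Day 5 (824) and 529 to 1704 for Day 28 against Day 2 (996).

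No pairing of the arrays by replicate number was evident, though 3 arrays a day cannot exclude it. Deviations from the day means correlated at -0.27 to 0.20 between arrays of the same number, with 2 of 18 pairs above 0.1. With the replicate block Gja1 lost its call in Day 28 against Day 5 (adjusted p = 0.0543) and Cdh11 in Day 5 (0.0702) and Day 28 (0.0568) against Day 2, all in limma. Among the other junction genes Ctnnal1 (0.0634) and the Cxadr probe (0.0707) lost theirs. With that block the counts were otherwise 3 (F test), 0 (Day 10 against Day 5), 1 (Day 28 against Day 10), 1 (Day 10 against Day 2) and 2 (Day 28 against Day 2).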
